A study of Mus musculus with 13 samples.

Results

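The 8 heme synthesis enzymes described here are Alas1, Alas2, Alad, Uros, Urod, Cpox, Ppox and Fech, picked by name from the pathway with earlier results of these data known. All 8 were found among 23337 genes in the EKLF+/+ and EKLF-/- count tables, among 35389 genes in the EKLF/GFP estimates and among 54227 genes in the single-cell matrix. The study profiled F4/80+ cells from livers of E13.5 mouse embryos, a stage of gestation at which this organ is the main site of red cell formation. F4/80, encoded by Adgre1, is a surface protein of macrophages, and EKLF, encoded by Klf1, is a zinc finger activator of erythroid genes. There were 3 EKLF+/+ libraries from wild type embryos, 3 EKLF-/- libraries from embryos lacking functional EKLF, 3 EKLF/GFP+ and 3 EKLF/GFP- libraries from wild type embryos carrying the pEKLF/GFP reporter, and 1 single-cell library of wild type F4/80+ cells.

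All groups were labelled C57BL/6, while the study's methods give 129S4/SvJae for the EKLF-null line. In the reporter line a single copy of the EKLF promoter drives green fluorescent protein, so GFP reports promoter activity and not EKLF protein. Cells for the single-cell library were pooled from 2 littermates and selected with magnetic beads, so it cannot show how embryos differ. RNA of EKLF/GFP+ cells was extracted with a Nanoprep kit and RNA of EKLF/GFP- cells with Trizol, so kit and population cannot be told apart. The paper reports lower RNA integrity for EKLF/GFP+ cells than for EKLF+/+ and EKLF-/- cells and gives no value for EKLF/GFP- cells. The part of RNA integrity in the gene and transcript differences was not tested. Nothing in the labels says whether libraries of a group came from separate litters, so p-values measure the spread between these libraries. Gene counts summed to between 10695514 and 15362161 in libraries of the null comparison and between 22721821 and 28735267 in EKLF/GFP libraries, and the single-cell library held 3096 barcodes.

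Heme is built from glycine and succinyl-CoA in a pathway that starts and ends in mitochondria and runs through the cytosol in between. The first step, 5-aminolevulinate synthase, exists as a housekeeping isozyme, ALAS1, which heme represses, and an erythroid isozyme, ALAS2, which is encoded on the X chromosome. The precursor is then condensed by ALAD, closed into a ring by UROS, decarboxylated by UROD, oxidised by CPOX and PPOX, and loaded with iron by ferrochelatase, FECH. Red cell precursors run this pathway at high rate to fill globin chains, and other cells run it at low rate for cytochromes, catalase and the granule peroxidase of neutrophils.

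The first comparison asked how each enzyme responded to loss of EKLF in F4/80+ cells. In EKLF-/- cells the transcripts of Alas2, Alad and Ppox fell, those of Alas1 and Uros rose, and those of Urod, Cpox and Fech did not pass the test. Klf1 itself, the targeted gene, stood at 3977 to 4906 normalised counts in EKLF+/+ libraries and at 746 to 838 in EKLF-/- libraries, 5.79-fold lower (adjusted p = 7.22e-06 in edgeR's quasi-likelihood test). Adgre1 was between 350 and 526 normalised counts in all 6 libraries and was not called (adjusted p = 0.604, edgeR). Normalised counts are read counts scaled by TMM (trimmed mean of M-values) to the mean effective library size, and a gene was called at an adjusted p under 0.05 over all 12753 genes tested.

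Alas2, the erythroid first enzyme (chromosome X, 150547375 to 150570638, plus strand, GRCm38), had 9309.7, 10661 and 12312 normalised counts in the EKLF+/+ libraries and 5037, 5962 and 4976 in the EKLF-/- libraries. The EKLF-/- libraries were all below the EKLF+/+ libraries, which gave -1.01 ± 0.14 on the log2 scale (fold change ± SE, 3 libraries per genotype, adjusted p = 0.00247 in edgeR). Alas2 is X-linked, and Xist, the transcript of the inactive X chromosome, was high in EKLF+/+ replicate 3 and in EKLF-/- replicates 1 and 3, so both genotypes held libraries of either kind. EKLF-/- replicate 2, with 29.9 normalised counts of Xist, and the 2 Xist-high EKLF-/- libraries were all below the lowest EKLF+/+ library in Alas2. Alas2 overlaps Apex2 and Mir3620 on the opposite strand, and the sources used here do not say whether counting used strand.

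Alad, which condenses aminolevulinate into porphobilinogen (chromosome 4, 62509169 to 62519918, minus strand), fell furthest of the 8. Its EKLF+/+ libraries held 6611, 6166 and 10753 normalised counts and its EKLF-/- libraries 2095, 3284 and 1870.3. EKLF+/+ replicate 3 was well above the other EKLF+/+ libraries, and every EKLF-/- library was below every EKLF+/+ library (log2 fold change -1.70 ± 0.27, adjusted p = 0.00474 in edgeR).

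Ppox, the penultimate enzyme (chromosome 1, 171275990 to 171281186, minus strand), showed a small fall, from 3140.2, 2721 and 3066 normalised counts to 2213, 2203 and 2268. The 3 EKLF-/- libraries lay close together and below all 3 EKLF+/+ libraries, with a log2 fold change of -0.42 ± 0.10 (adjusted p = 0.0242 in edgeR). Ppox lost its call without EKLF+/+ replicate 1, EKLF+/+ replicate 3 or EKLF-/- replicate 3 (edgeR adjusted p of 0.110, 0.0700 and 0.0854). Ppox also overlaps B4galt3 on the opposite strand, and the strand setting of the counting is not given in the sources used here.

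Uros, which closes the tetrapyrrole ring (chromosome 7, 133686243 to 133710072, minus strand), went the other way. It had 1802, 1534 and 2181 normalised counts in EKLF+/+ libraries and 3589, 3717 and 3492 in EKLF-/- libraries, so that the lowest EKLF-/- library was above the highest EKLF+/+ library (log2 fold change 0.97 ± 0.14, adjusted p = 0.00273 in edgeR). Uros overlaps Bccip on the opposite strand, so part of its reads could belong to either gene if strand was not used.

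Alas1, the housekeeping first enzyme (chromosome 9, 106233455 to 106248654, minus strand), rose from 1361, 1468 and 1089 to 1806, 4055 and 2252 normalised counts. EKLF-/- replicate 2 stood far above the rest, and the log2 fold change of 1.05 ± 0.28 (adjusted p = 0.0324 in edgeR) became 0.62 without that library, still called (adjusted p = 0.0105). The call was lost without any single EKLF+/+ library or without EKLF-/- replicate 3, with edgeR adjusted p between 0.0550 and 0.12. A non-coding antisense gene, 4930500F10Rik, overlaps Alas1 on the opposite strand.

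The remaining 3 enzymes showed small differences. Cpox, which oxidises coproporphyrinogen, had 22411, 21269 and 24846 normalised counts in EKLF+/+ libraries and 18683, 13561 and 20472 in EKLF-/- libraries. Its groups did not overlap, but the log2 fold change of -0.38 ± 0.17 missed the threshold (adjusted p = 0.129 in edgeR). Cpox overlaps Gpr15 on the opposite strand. Fech, which inserts iron, ranged from 11345 to 13344 in EKLF+/+ and from 12103 to 14549.6 in EKLF-/- libraries (log2 fold change 0.14 ± 0.12). Urod, the decarboxylase, ranged from 5383 to 6698 and from 5209 to 6013 (log2 fold change -0.05 ± 0.13). Both sets of values overlapped between genotypes, and neither was called (adjusted p = 0.426 and 0.797 in edgeR).

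**Figure D1:**
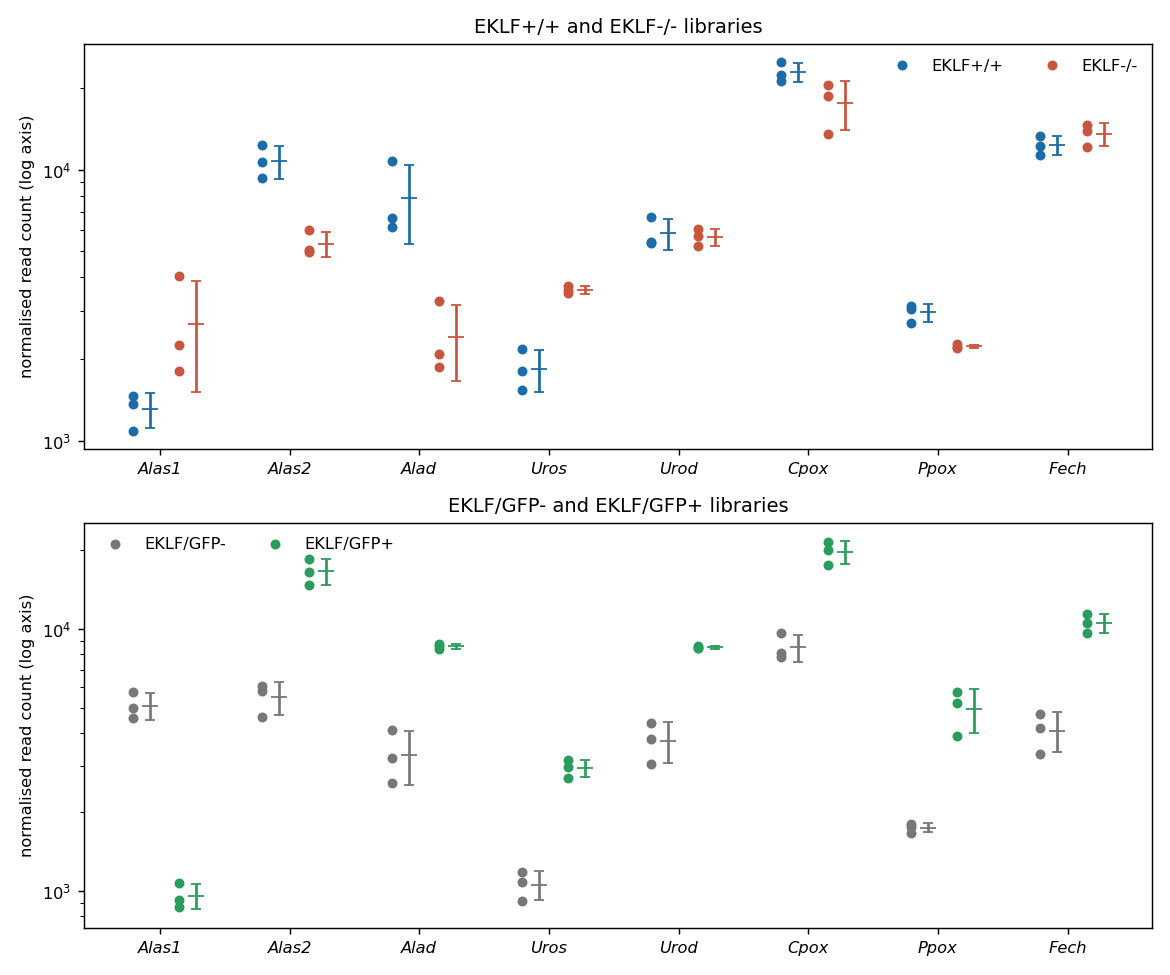
Normalised read counts of the 8 enzymes, on a log axis, in each EKLF+/+ and EKLF-/- library (top) and each EKLF/GFP- and EKLF/GFP+ library (bottom). Each dot is a library and the bar beside it is the mean ± SD of 3 libraries. Alas1 is the only enzyme with higher values in EKLF/GFP- than in EKLF/GFP+ libraries, and Alas1 and Uros are higher in EKLF-/- than in EKLF+/+ libraries.

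In this comparison 3 of 8 enzymes were called lower, against 10.6% of all genes tested, and 2 of 8 were called higher, against 9.72% of all genes. For 6 of the 8 the groups did not overlap, against 46.3% of all genes. The median log2 fold change over the 8 was -0.21, and over all genes tested it was 0.02.

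In these bulk libraries fewer cells of a type and less RNA per cell cannot be told apart. Of the 10 erythroid-like marker genes, 8 were tested, 4 were called lower and 1 higher, with a median log2 fold change of -0.79. Their summed level was 10064 to 12147 CPM (counts per 1000000 counts of the library) in EKLF+/+ and 5742 to 8025 in EKLF-/- libraries. Hba-a1, which has a near-identical copy, was at 0 in all 6 libraries, and Hbb-bt was not among the genes counted. Of the 7 neutrophil-like markers 4 were called higher and none lower in edgeR (0 lower at an unadjusted p under 0.05 and 0 in DESeq2). Their sum was 5408, 6714 and 5058 CPM in EKLF+/+ and 7303, 13076 and 8809 in EKLF-/- libraries, and the library with the highest neutrophil-like sum, EKLF-/- replicate 2, was also the one with the highest Alas1. Of the 10 macrophage-like markers 3 were called lower and none higher (1 higher at an unadjusted p under 0.05 and 0 in DESeq2), with a sum of 301 to 348 CPM in EKLF+/+ and 307 to 439 in EKLF-/- libraries. Of the other classes, 4 of 5 endothelial-like, 4 of 5 mesenchymal-like and 3 of 4 progenitor-like markers were called lower, and 1 each of the monocyte-like, lymphoid-like and mast cell- or basophil-like markers higher. The part of these marker differences in the responses of Alas1, Alas2 and the other enzymes was not tested.

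The other genes of the heme system were taken from 5 lists. Among 11 carriers of substrate, intermediates and iron in mitochondria and their partners, 5 were called lower and none higher in EKLF-/- cells (1 higher at an unadjusted p under 0.05 and 0 in DESeq2). Slc25a37, the mitoferrin that brings iron to ferrochelatase, stood at 26577, 23830.0 and 28132 normalised counts in EKLF+/+ and at 4282, 2864 and 3830.2 in EKLF-/- libraries, a 7.15-fold fall that exceeded that of any of the 8 enzymes (log2 fold change -2.84 ± 0.17, adjusted p = 2.58e-05 in edgeR). Slc25a38, the glycine carrier that feeds the first step, fell 1.63-fold (adjusted p = 0.00348), and Fam210b fell 1.69-fold (adjusted p = 0.00276). Transcripts of the iron and glycine carriers thus fell as Alas2 did, while Fech, the enzyme that uses the iron, had overlapping values.

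Of the 9 iron-sulfur assembly genes only Isca1 was called, 1.63-fold lower (adjusted p = 0.00358 in edgeR; DESeq2 called 2). Of 9 tested genes of heme export, import, binding and breakdown only Blvrb, a biliverdin reductase of red cells, was called, 2.12-fold lower (adjusted p = 0.0026; DESeq2 also called 3 higher). None of 11 regulators of ALAS and heme level, Gata1 and the heme-regulated kinase gene Eif2ak1 among them, was called in edgeR or DESeq2, and 4 had an unadjusted edgeR p under 0.05. Of the 4 globin genes tested, the heme acceptors, Hbb-bs, Hba-x and Hbb-y were called lower, with Hbb-bs at 62344 to 99953 in EKLF+/+ and 1601 to 2776 in EKLF-/- libraries. Globin genes have near-identical copies and strain-specific alleles, so their folds are uncertain.

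The promoters of 7 of the 8 enzymes were matched in RefSeq (GRCm38.p6, 10 windows of 250 bases before and 50 after a start). They were searched on both strands for the EKLF core CCNCNCCC, for CACCC, which overlaps that core where both match, and for GATA with A or T directly before it and A or G directly after it. Of all 32851 windows 49.5% held the EKLF core, 57.5% held CACCC and 29.8% held a GATA word, so a match is common and is a description only. The 250 bases upstream of the start are shown for Alas2 and Alas1, the isozymes of the first step, and for Cpox and Uros, which with Alas2 are the only members whose windows held a GATA word. Capitals mark matches to any of these motifs.
Alas2, chrX:150547167-150547416, plus strand: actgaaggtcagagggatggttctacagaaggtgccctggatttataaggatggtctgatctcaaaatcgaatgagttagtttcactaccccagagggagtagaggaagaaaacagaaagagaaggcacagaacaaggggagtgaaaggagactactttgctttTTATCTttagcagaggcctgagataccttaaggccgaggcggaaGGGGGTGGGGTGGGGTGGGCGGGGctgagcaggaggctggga
Alas1, chr9:106247955-106248204, minus strand: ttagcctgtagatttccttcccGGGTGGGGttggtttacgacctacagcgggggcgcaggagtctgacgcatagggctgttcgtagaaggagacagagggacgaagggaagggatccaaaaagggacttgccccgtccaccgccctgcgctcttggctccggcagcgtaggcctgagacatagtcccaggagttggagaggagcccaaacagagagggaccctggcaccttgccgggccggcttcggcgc
Cpox, chr16:58669958-58670207, plus strand: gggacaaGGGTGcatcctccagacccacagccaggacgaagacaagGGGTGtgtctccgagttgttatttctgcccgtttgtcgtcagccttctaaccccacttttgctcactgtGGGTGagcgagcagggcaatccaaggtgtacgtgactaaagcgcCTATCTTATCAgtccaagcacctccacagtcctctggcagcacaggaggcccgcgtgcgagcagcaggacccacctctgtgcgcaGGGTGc
Uros, chr7:133702501-133702750, minus strand: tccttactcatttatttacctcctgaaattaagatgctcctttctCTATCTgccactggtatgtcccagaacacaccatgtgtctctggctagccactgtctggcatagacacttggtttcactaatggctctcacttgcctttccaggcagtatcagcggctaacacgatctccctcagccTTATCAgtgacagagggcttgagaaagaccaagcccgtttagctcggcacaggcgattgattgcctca

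The Alas2 window, upstream of a gene that fell in EKLF-/- cells, held 4 overlapping or adjacent EKLF cores between positions -42 and -26 and a GATA word at -86, all read on the opposite strand. Positions count back from -1, the last base before the start, and give the first base of a match on the strand shown. The Cpox window held 4 CACCC words and 1 EKLF core, which begins at transcribed base 20. It also held 3 GATA words, 2 of them upstream, at -91 and -86, where they share a base. The Alas1 window shown held an EKLF core at -228 upstream of the start, another beginning at transcribed base 19, and no GATA word. The other Alas1 window, which overlaps it, held 2 EKLF cores upstream of its start, at -206 and -47, and no GATA word. The Uros window shown lies within the gene, at the internal start annotated there, and held 2 GATA words and no EKLF core, while the window at the upstream Uros start held 1 EKLF core and no GATA word. Ppox and Urod held 1 EKLF core each, and the Alad windows held 2 and 4.

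The second comparison set F4/80+ cells in which the EKLF promoter reporter was seen against F4/80+ cells in which it was not. In EKLF/GFP+ cells all enzymes but Alas1 were higher, by 2.27- to 3.02-fold, and Alas1 was 5.33-fold lower. The 7 enzymes called higher compare with 18.9% of all 14238 genes tested, and the 1 called lower with 25.8%. No enzyme had overlapping values between the populations, which held for 55.7% of all genes. The median log2 fold change was 1.37 over the 8 enzymes and -0.01 over all genes.

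Alas1 had 922, 872 and 1078 normalised counts in EKLF/GFP+ libraries and 5750, 4984 and 4570.0 in EKLF/GFP- libraries. This was the clearest difference of the set (log2 fold change -2.41 ± 0.12, adjusted p = 9.32e-06 in edgeR). Alas2 had 14701, 16565 and 18459 normalised counts in EKLF/GFP+ libraries and 6032, 5815 and 4604 in EKLF/GFP- libraries, 3.02-fold higher with GFP (log2 fold change 1.60 ± 0.13, adjusted p = 4.89e-05 in edgeR). The paired isozymes of the first step thus stood on opposite sides.

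Uros had 2706, 3161 and 2967 normalised counts with GFP and 1078, 1183 and 912 without, a log2 difference of 1.48 ± 0.11 (adjusted p = 3.68e-05 in edgeR). Ppox had 3912, 5725 and 5198 with GFP and 1671, 1755 and 1805 without (1.5 ± 0.14, adjusted p = 7.79e-05). Alad lay between 8399.8 and 8725 with GFP and between 2589 and 4132 without (1.37 ± 0.15). Fech lay between 9676 and 11401 against 3328 and 4739 (1.36 ± 0.13), Cpox between 17478 and 21445 against 7813 and 9651 (1.21 ± 0.12), and Urod between 8429 and 8589 against 3051 and 4370.2 (1.18 ± 0.12). For these 4 the edgeR adjusted p lay between 0.000102 and 0.000223. Klf1, the gene whose promoter drives the reporter, lay between 2278 and 2626 normalised counts with GFP and between 747 and 1194 without, so GFP- libraries were not free of it (2.55-fold, adjusted p = 0.000313), and Adgre1 was not called (adjusted p = 0.679).

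**Figure D2:**
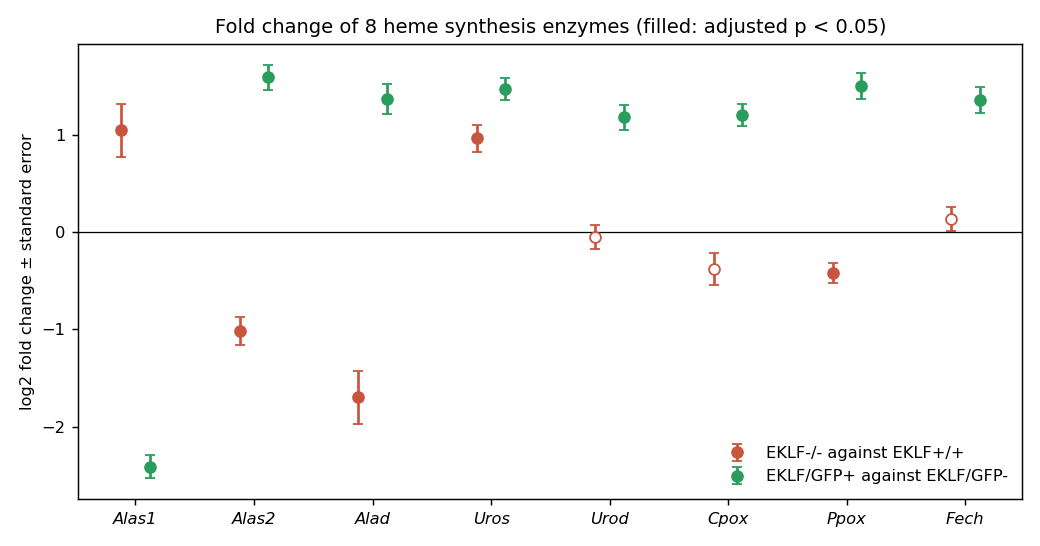
Log2 fold changes with standard errors of the 8 enzymes in EKLF-/- against EKLF+/+ cells and in EKLF/GFP+ against EKLF/GFP- cells, with filled circles for adjusted p under 0.05. Uros is above 0 in both comparisons (0.97 and 1.48), while Alas2, Alad and Ppox are below 0 in EKLF-/- cells and above 0 in EKLF/GFP+ cells.

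Markers of other cells differed with GFP as well. All 10 erythroid-like markers were called higher with GFP, and their sum was 10394 to 12357 CPM in EKLF/GFP+ and 5274 to 6569 in EKLF/GFP- libraries. All 7 neutrophil-like markers were called lower, with a sum of 462 to 724 CPM with GFP and 3952 to 4574 without. Of the 10 macrophage-like markers 1 was called lower and none higher in edgeR (2 lower and 3 higher at an unadjusted p under 0.05, and 2 lower and 1 higher in DESeq2). Their median log2 fold change was 0.39, with overlapping sums of 189 to 524 with GFP and 326 to 513 without. All 5 megakaryocyte-like markers were called higher with GFP, and all 5 monocyte-like, all 4 progenitor-like, all 4 tested lymphoid-like, 4 of 5 endothelial-like and 1 of 4 tested mesenchymal-like markers lower. The erythroid-like, neutrophil-like and macrophage-like markers were each above 0 in both populations, and their part in the enzyme differences was not tested.

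On the per-length scale of TPM (length-corrected share of the library, scaled to 1000000), which allows levels of different genes to be compared, Urod was highest in EKLF/GFP+ cells at 557 ± 22.1 TPM (SD, n = 3). Of the Urod reads there 71.8% were given to transcripts that retain an intron, and the part of this in the order was not tested. In normalised counts, which are not per length, Cpox had 19628 and Urod 8499. On the TPM scale Cpox followed at 386 ± 26.0 TPM, then Fech at 250.04 ± 21.8 and Alas2 at 232 ± 30.5, whose libraries overlapped. Alad had 195 ± 17.0 TPM, with its highest library, at 207, near the lowest of Alas2, at 209.7. Uros at 118 ± 4.32 and Ppox at 109 ± 14.6 TPM overlapped, and Alas1 was lowest at 31.2 ± 2.55 TPM. In EKLF/GFP- cells Urod again led, at 259.8 ± 38.6 TPM, and Cpox (173 ± 24.2) and Alas1 (169.7 ± 19.4) came next with overlapping libraries. Fech had 111 ± 22.5, Alas2 78.8 ± 11.4 and Alad 78.3 ± 18.2 TPM, with overlapping libraries, and Uros (46.6 ± 6.18) and Ppox (41.9 ± 2.96) overlapped as well.

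The share of Alas1 in the summed TPM of Alas1 and Alas2 was 12.7%, 11.7% and 11.3% in EKLF/GFP+ libraries and 68.4%, 65.5% and 71.0% in EKLF/GFP- libraries. The difference of -56.4 percentage points gave p = 0.1 in a two-sided exact permutation test, the smallest that 3 against 3 libraries allow. In EKLF/GFP- libraries 65.6% of the Alas1 reads were given to the partial transcript Alas1-206, with full-length Alas1-201 listed at 0, and the part of this in the TPM share was not tested. In counts, an alternative chosen after seeing the data, the Alas1 share was 5.90%, 5.003% and 5.52% in EKLF/GFP+ and 48.8%, 46.2% and 49.8% in EKLF/GFP- libraries (p = 0.1, the same exact permutation test), so which isozyme had more in EKLF/GFP- cells turned with the scale. In the other comparison, for which counts were used, Alas1 took 12.8%, 12.1% and 8.12% of the reads of both genes in EKLF+/+ libraries and 26.4%, 40.5% and 31.2% in EKLF-/- libraries, 21.7 points more in EKLF-/- (p = 0.1, the same exact permutation test). In both comparisons the groups did not overlap. The count-based shares are not corrected for length.

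Of the other lists, all 7 globin genes were called higher with GFP, led by the embryonic genes Hbb-bh1 (5.46-fold), Hba-x (4.53-fold) and Hbb-y (3.46-fold). Among the 11 mitochondrial carriers and partners 6 were called higher and none lower (2 lower at an unadjusted p under 0.05 and 0 in DESeq2). They were led by Fam210b (2.90-fold), Abcb10 (2.75-fold), which holds mitoferrin and ferrochelatase together, and Abcb6 (2.69-fold), a porphyrin transporter. Of 9 iron-sulfur genes 5 were called higher, among them Isca1 (2.19-fold) and Glrx5 (2.18-fold), whose loss limits heme synthesis. Of 11 regulators 6 were called higher, with Gata1 (2.60-fold) and Tal1 (2.27-fold), the erythroid activators, and Eif2ak1 (1.93-fold) in front. Of 9 tested genes of heme handling 7 were called higher and 1 lower, with Hebp1 (2.88-fold), Blvrb (2.56-fold) and Hmox1 (2.37-fold), the heme oxygenase of macrophages, leading. For these named genes the edgeR adjusted p lay between 3.25e-05 and 0.00739.

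Salmon estimates gave 69 annotated transcripts of the 8 genes, of which 27 held at least 5% of their gene's reads in either population. Of these 27, 23 were called higher with GFP (4.13% of all 45649 transcripts) and 3 lower (7.75%), and the 3 lower were all from Alas1. Values did not overlap between populations for 34.3% of all transcripts. The files do not hold the uncertainty of assigning reads to transcripts, so these p-values are too small. Without EKLF/GFP- replicate 1 the 23 became 11.

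Alas1 reads fell mostly to Alas1-206, a partial transcript without an annotated coding frame, at 64.5% ± 3.99 of the gene's reads with GFP and 65.6% ± 3.11 without (SD, n = 3), while the full-length coding transcript Alas1-201 was listed at 0 in all 6 libraries. The Alas1-206 shares overlapped between populations while the level differed. For Alas2 the balance of its 2 main coding transcripts differed between populations. Alas2-201, which starts at the upstream base 150547375, took 33.3%, 38.3% and 40.6% of the gene's reads with GFP and 29.0%, 27.5% and 25.1% without. Alas2-202, which starts at 150547459, took 66.0%, 59.4% and 57.4% with GFP and 70.1%, 71.3% and 73.1% without. Both were called higher with GFP (log2 fold change 2.00 and 1.30, adjusted p = 0.00395 and 0.00221 in edgeR), and the shares did not overlap.

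Transcripts annotated as retaining an intron took 74.5% ± 3.12 of the Urod reads without GFP and 71.8% ± 1.43 with it, 53.1% ± 6.90 and 49.97% ± 3.88 of the Ppox reads and 22.0% ± 1.46 and 27.4% ± 3.51 of the Fech reads. For Alad, coding transcripts took 98.9% ± 0.433 and 98.5% ± 0.321.

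The single-cell library showed which cells held each step. Clustering of 3093 cells, with the 8 enzymes and the 5 gene lists left out of the clustering genes, gave 16 clusters, of which 13 could be named from marker genes. The macrophage-like class held 46.7% of cells (3 clusters) and the erythroid-like class 19.9% (615 cells in 4 clusters), so the F4/80+ preparation was not macrophages alone. This is 1 library, so values are given with 95% intervals that cover counting error only, and without a test.

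The erythroid-like cells held 92.2% of all Alas2 counts (interval 91.4 to 92.9%), 86.0% of Cpox, 82.0% of Alad, 79.5% of Fech, 76.4% of Uros, 75.6% of Urod and 67.8% of Ppox counts. For Alas1 the share was 3.85% (3.17 to 4.67%). At a clustering resolution of 0.4, where low-globin cells joined a megakaryocyte-like cluster, the erythroid-like shares were 90.6% for Alas2, 55.6% for Cpox, 53.5% for Alad, 64.8% for Fech, 54.7% for Uros, 53.2% for Urod, 50.6% for Ppox and 1.33% for Alas1. Alas1 counts lay in the neutrophil-like cells instead, a single cluster with 7.66% of cells and 66.6% of all Alas1 counts (64.7 to 68.4%). The macrophage-like class, with the most cells, held 14.4% of Alas1 and 4.21% of Alas2 counts. Unnamed cluster 7, high in 7 of 10 macrophage markers, held another 0.75% and 2.19%. It was left out of that class by a rule added after its values were seen. Per cell type, then, the isozymes of the first step were split between neutrophil-like and erythroid-like cells.

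**Figure D3:**
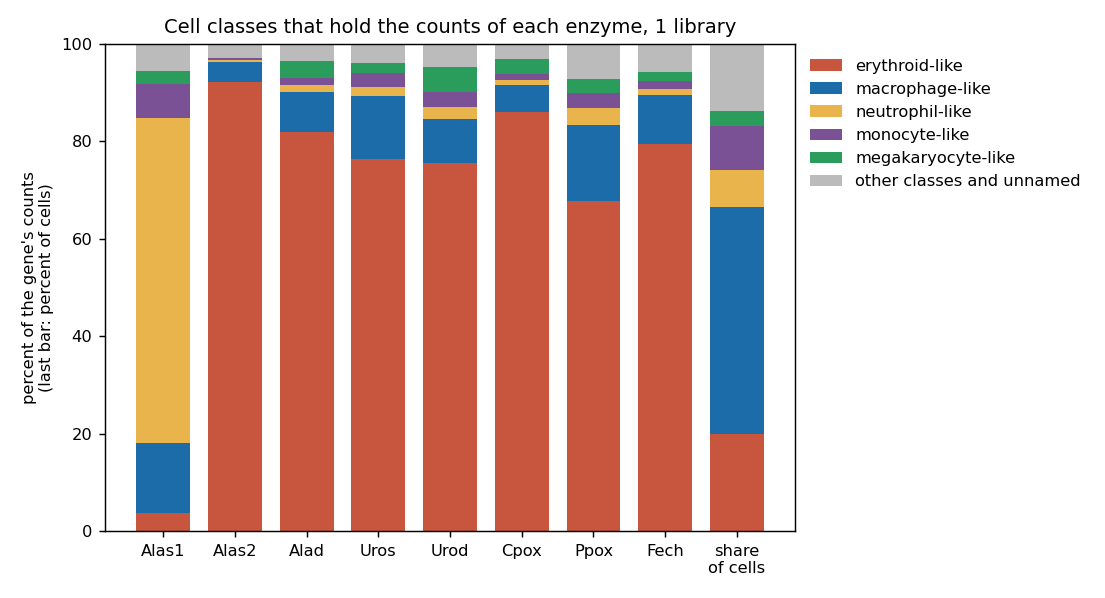
Percent of each enzyme's counts in the single-cell library that came from each cell class, with the percent of cells in the last bar. Erythroid-like cells are 19.9% of cells and hold 67.8 to 92.2% of the counts of every enzyme but Alas1, whose largest share, 66.6%, is in neutrophil-like cells. At a clustering resolution of 0.4 the erythroid-like range was 50.6 to 90.6%.

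In the neutrophil-like cluster, in which all 7 markers were high, Alas1 stood at 278 CPM (265 to 291), and 81.9% of its 237 cells had a count. In the other named classes Alas1 ranged from 4.91 CPM in erythroid-like cells (3.99 to 5.98) to 33.6 in mast cell- or basophil-like cells (19.6 to 53.8). After thinning every cell to 5000 counts, which left out 55 shallower cells, 55.8% of neutrophil-like and 2.45% of erythroid-like cells had an Alas1 count, and 5.08% of hepatoblast-like cells did. In the other named classes this share ran from 6.88% of macrophage-like to 21.1% of mast cell- or basophil-like cells. The neutrophil-like cells did not stand apart in the later enzymes, with Alad at 23.3, Cpox at 30.3 and Fech at 13.8 CPM.

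Free RNA can give counts in droplets whose cell does not express a gene. Alas2 stood at 0.56 to 8.04 CPM in the non-erythroid named classes in which it was found, against 229 in erythroid-like cells (223 to 236), and 9.63% of macrophage-like and 9.52% of hepatoblast-like cells had a count (median depths of 14509 and 26499 counts, against 27520.0 in erythroid-like cells). This range leaves out unnamed cluster 7, which was high in 7 of 10 macrophage markers and had Alas2 at 78.2 CPM. Alas2 counts per 1000 globin counts were 0.65, 1.25 and 0.68 in macrophage-like clusters 0, 1 and 2, 0.98, 1.02, 1.11 and 0.64 in erythroid-like clusters 4, 6, 8 and 11, 0.61 in neutrophil-like, 0.96 in monocyte-like, 1.07 in hepatoblast-like and 1.21 in endothelial-like cells, and 0.17, from 2 Alas2 counts, in megakaryocyte-like cells. The part of free RNA in the macrophage-like Alas2 counts was not tested. No Alas2 count was found in the 19 mast cell- or basophil-like cells, with an interval up to 7.29 CPM.

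**Figure D4:**
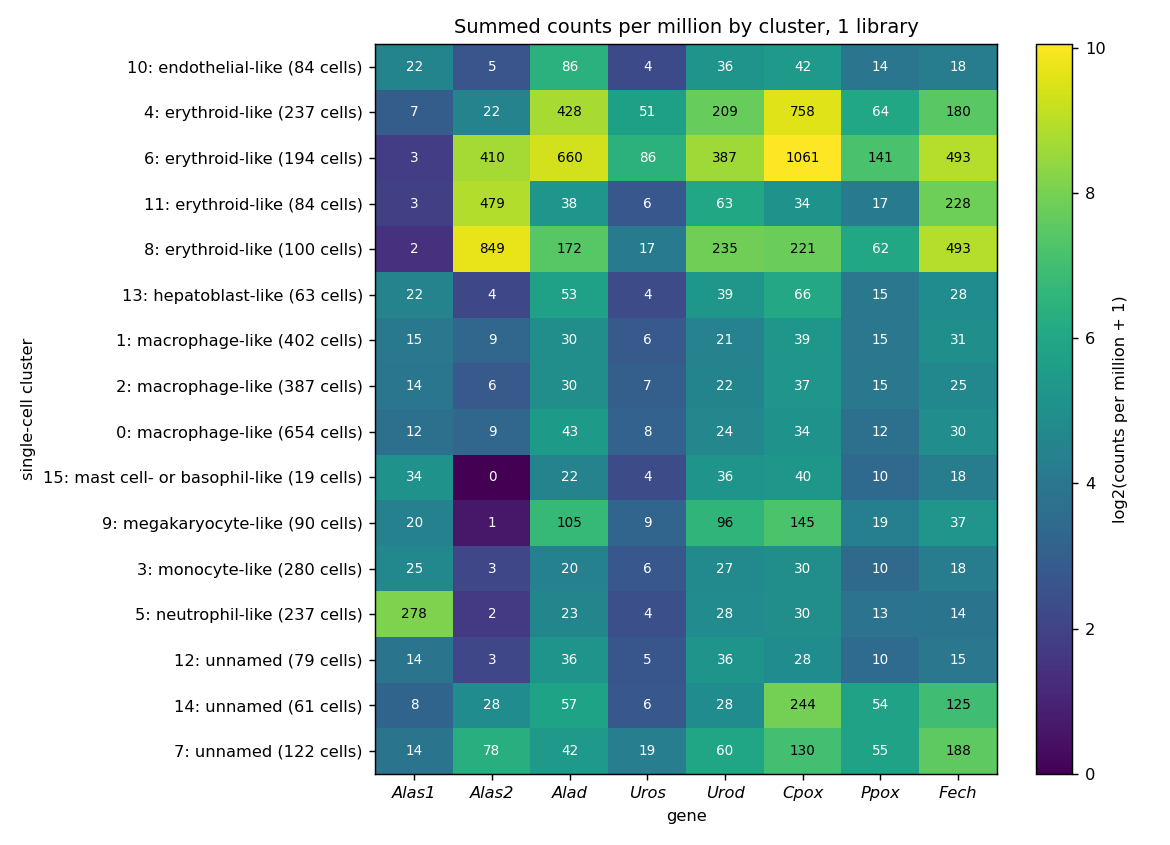
Summed CPM of each enzyme in each of 16 single-cell clusters, as numbers and as colour on a log2(CPM + 1) scale. Erythroid-like clusters 4, 6 and 8 are high in most enzymes, Alas1 is highest in neutrophil-like cluster 5 (278), and unnamed clusters 7 and 14 are above the macrophage-like clusters in Fech (188 and 125) and Alas2 (78 and 28).

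The 4 erythroid-like clusters differed in how much of their RNA was globin, 2.21% in cluster 4, 40.2% in cluster 6, 76.7% in cluster 8 and 75.2% in cluster 11. Cluster 4 was named from 4 of 10 erythroid markers and cluster 11 from 3, and cluster 11 was led by the embryonic globin genes Hbb-y, Hba-x and Hbb-bh1, which are typical of primitive red cells. The globin share dilutes other genes, so levels are also given as CPM of non-globin counts.

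Alas2 was low in cluster 4, at 21.7 CPM (19.1 to 24.5), and stood at 410 in cluster 6 (393 to 428), 849 in cluster 8 (807 to 893) and 479 in cluster 11 (444 to 516). The intermediate enzymes were also found in cluster 4. Cpox had 758 CPM there, 1061 in cluster 6, 221 in cluster 8 and 34.1 in cluster 11, and every cell of clusters 4 and 6 had a count. Alad had 428, 660, 172 and 37.6, and Uros 51.0, 86.1, 16.8 and 5.57 CPM in the same order. These 3 enzymes were highest in cluster 6 on both scales, with Cpox at 1775, Alad at 1104 and Uros at 144 in CPM of non-globin counts. For Cpox and Alad the order of clusters 4 and 8 turned with the scale, since in CPM of non-globin counts Cpox had 775 in cluster 4 and 949 in cluster 8, and Alad 438 and 738. Uros had 52.1 (48.0 to 56.5) and 71.9 (48.5 to 103), with overlapping intervals on that scale.

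Urod had 209, 387, 235 and 62.6 CPM, and Ppox 63.5, 141, 62.0 and 17.4, with overlapping Ppox intervals in clusters 4 and 8. Fech had 179.8, 493, 493 and 228, alike in clusters 6 and 8. In CPM of non-globin counts Urod had 648 in cluster 6 and 1007 in cluster 8, and Fech 824 and 2116, so for these enzymes the order of clusters 6 and 8 depends on the scale. Ppox had 236 (219 to 253) and 266 (219 to 320) on that scale, with overlapping intervals. Alas2 as CPM of non-globin counts went from 22.2 in cluster 4 to 686 in cluster 6 and 3643 in cluster 8. Alas1 had 6.74 CPM in cluster 4 (5.33 to 8.41), where 25.7% of cells had a count, and 2.52, 1.68 and 2.78 CPM in clusters 6, 8 and 11, from 13, 3 and 4 counts. In CPM of non-globin counts it had 6.89 (5.45 to 8.60), 4.21 (2.24 to 7.20), 7.19 (1.48 to 21.0) and 11.2 (3.05 to 28.7), with overlapping intervals, so no order of the 4 clusters was resolved on that scale.

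**Figure D5:**
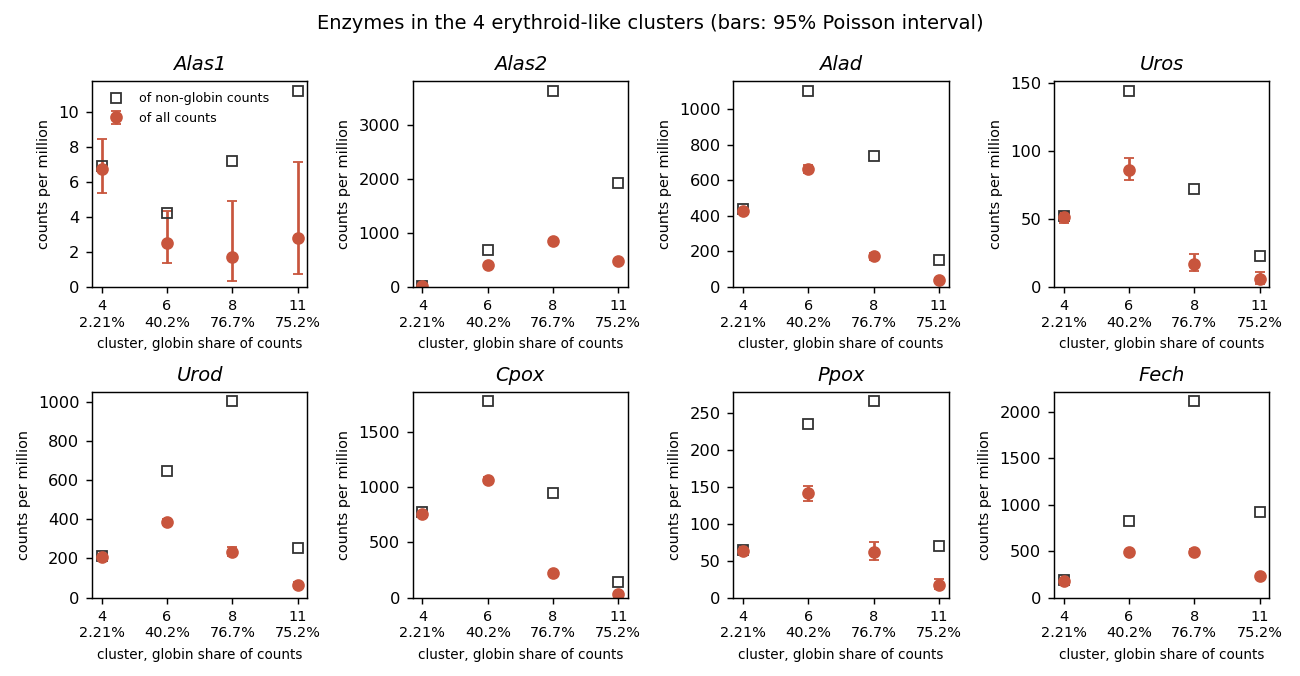
CPM of each enzyme in the 4 erythroid-like clusters, ordered by the share of globin in their counts with embryonic-globin cluster 11 last, as filled circles with 95% Poisson intervals and, as open squares, CPM of non-globin counts. Cpox, Alad and Uros peak in cluster 6 on both scales (1061, 660 and 86.1 of all counts), while Alas2 peaks in cluster 8 (849).

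Counts of all 7 enzymes other than Alas1 were found in 82.0% of the 194 cells of cluster 6, in 39.7% of cluster 4, in 17.0% of cluster 8 and in 1 of 84 cells of cluster 11. After thinning to 5000 counts the shares were 14.1% in cluster 6, 0.42% in cluster 4 and 0 of 100 cells in cluster 8, and the median number of the 7 enzymes seen was 5 in cluster 6 and 4 in clusters 4 and 8. Of 1443 macrophage-like cells 4 had all 7 enzymes before thinning and none after it. Of the 122 cells of unnamed cluster 7, 3 had all 7 before thinning and none after it.

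Cluster 7, of 122 cells, was left unnamed. It was high in 7 of 10 macrophage markers, with Adgre1 at 490 CPM, but none of them was among its 10 leading genes, which began with Tmcc2, Ypel4, Xpo7 and Slc2a1 and shared Tmcc2 and Xpo7 with erythroid-like cluster 8. It held Slc4a1, the anion exchanger of the red cell membrane, at 559 CPM. In it Fech stood at 188 CPM, Cpox at 130, Alas2 at 78.2 and Ppox at 54.5, against at most 31.3, 38.6, 9.07 and 15.4 in the 3 macrophage-like clusters. Urod stood at 60.3 CPM and Uros at 18.6, against at most 24.4 and 7.92. Alad, at 41.6, and Alas1, at 13.6, did not exceed the highest macrophage-like values, 43.2 and 15.4. Alas2 per 1000 globin counts was 1.82 in cluster 7. The summed erythroid-like marker level was 1922 CPM there, against 230.1 to 301 in the macrophage-like clusters and 2265 in erythroid-like cluster 4, and its part in these levels was not tested. Cluster 7 was not alone in this. Unnamed cluster 14, of 61 shallow cells with 20.3% of counts from mitochondrial genes, was also high in 7 of 10 macrophage markers and had Cpox at 244 CPM (195 to 301), Fech at 125 (90.5 to 167), Ppox at 53.8 (32.4 to 84.0) and Alas2 at 28.3 (13.6 to 52.1). The other enzymes had intervals that overlapped those of macrophage-like cluster 0. They were Alad at 56.6 CPM (34.6 to 87.5), Urod at 28.3 (13.6 to 52.1), Uros at 5.66 (0.69 to 20.5) and Alas1 at 8.49 (1.75 to 24.8). Alas2 per 1000 globin counts was 2.00 in cluster 14, from 10 Alas2 counts, and its summed erythroid-like marker level was 1130 CPM. Megakaryocyte-like cells also held middle steps, with Cpox at 145 CPM (132 to 158), Alad at 105 (94.9 to 117) and Urod at 95.7 (85.8 to 106), but Alas2 at 0.56.

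By correlation of log2(CPM + 1) over the 16 clusters, among 8485 genes with at least 500 counts, the 3 genes most like each enzyme were sought. The 3 nearest to Alas2 were the adult globin genes Hba-a2, Hbb-bs and Hbb-bt (Pearson r of 0.97 each). Among those nearest to Fech was Slc4a1 (0.97). Nearest to Alad were Ubac1, Glrx5 and Ssx2ip (0.93, 0.92 and 0.92), to Uros Ubac1, Glrx5 and Cldn13 (0.94, 0.90 and 0.87) and to Urod Glrx5, Prdx2 and Klf1 (0.98, 0.94 and 0.93). Nearest to Cpox were Slc30a10, Nxpe2 and Slc38a5 (0.97, 0.94 and 0.93), and to Ppox Rnf123, Nxpe2 and Cldn13 (0.98, 0.96 and 0.96). Nearest to Alas1 were Rab3d, Tmed3 and Cebpe (0.89, 0.89 and 0.88), the last a factor of granulocyte maturation. The clusters share 1 library and free RNA, so these values describe this library only.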

How the data were processed

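The members and gene lists were chosen with earlier results of these data known. Gene counts of EKLF+/+ and EKLF-/- libraries were deposited by the authors as whole-number counts from STAR and HTSeq (67.2 to 72.7% of their reads lay in rows that name no gene and were left out), and 2292 older symbols were translated. For EKLF/GFP libraries the deposited Salmon files give expected counts and TPM per transcript, which were summed per gene (115898 of 116546 transcripts were joined) with counts rounded. The single-cell matrix holds expected counts deposited by the authors from alevin, of which 4.33% of nonzero values were not whole. Submitters' notes name mm10 and GRCm38. In all, 5 per-sample columns of the count files match no sample and were not used, and other summary tables of the series were not used.

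Genes reaching 10 counts in 3 or more of the 6 libraries were tested two-sided with edgeR 4.0.16 (quasi-likelihood, TMM), Benjamini-Hochberg adjusted over all genes, per comparison. DESeq2 1.42.0 and other settings served as alternatives. Steps were tested on simulated data. Named genes were the 8 enzymes, Klf1, Adgre1, up to 3 called genes per list and comparison with the largest change and a mean of at least 100 normalised counts, and the 3 genes most like each enzyme over single-cell clusters. Some genes that this rule picks are not reported here. Cells with at least 200 genes were clustered with Seurat 5.3.0 (4000 variable genes, 30 components, resolution 0.8), and a cluster was named when at least 3 markers of a class were at 2-fold or more over other cells and 20 CPM, with more for that class than any other. A cluster stayed unnamed where classes tied, where another class had more markers among its 10 leading genes, where its median depth was far below that of the library (cluster 14, 5541 against 18605 counts) with no marker of the class among those genes, or where it had no such marker and shared at least 2 leading genes with a cluster of another class (cluster 7, a rule added after its values were seen, under which a cluster with the same leading genes was still macrophage-like at resolution 0.4, with 122 cells, and among cells with at least 1000 genes, with 123 cells). The doublet caller scrublet (scanpy 1.11.5) marked 0 of 3093 cells at its own threshold, so doublets were kept. Shares have Wilson intervals and levels exact Poisson intervals at 95%.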

Additional observations from a re-analysis of the deposited data

How the results depend on the processing

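In EKLF/GFP cells the 7 enzymes called higher and the 1 called lower kept their direction and call in every alternative run: DESeq2, its size factors, 2 other count filters, globin genes left out, the replicate block and leaving out each library. In EKLF-/- cells DESeq2, the size factors, the filters and the globin setting gave 3 enzymes lower and 2 higher. Leaving out each replicate gave 2 to 3 enzymes lower and 1 to 2 higher, and moved Urod between -0.12 and 0.038 on the log2 scale, with 0.038 without EKLF+/+ replicate 3 and 0.01 without EKLF-/- replicate 3. Over all genes it gave 575 to 1889 lower and 346 to 1730 higher. For transcripts, leaving out a replicate gave 11 to 22 described transcripts higher, and over all transcripts 1585 to 3152 lower and 731 to 1535 higher. The cause was not tested.

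Replicate numbers did not pair the samples: same-numbered deviations correlated at -0.01 to 0.06 in EKLF+/+ and EKLF-/- libraries and at -0.09 to 0.03 in EKLF/GFP libraries (-0.12 to 0.15 over transcripts), and not every library correlated best with its own number. With the replicate block Ppox was not called in EKLF-/- cells (edgeR adjusted p = 0.0587), leaving 2 enzymes lower, and 11 described transcripts were higher, with 1276 transcripts lower and 438 higher in all. The block changed no other gene-level call of an enzyme. In counts in place of TPM, chosen after seeing the data, the mean Alas1 share of both isozymes in EKLF/GFP- libraries was 48.3% against 68.3%.

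In every single-cell setting 7 enzymes were highest in erythroid-like cells. At resolution 0.4 part of the low-globin erythroid-like cells joined a megakaryocyte-like cluster, and the erythroid-like share of Alad counts was 53.5% and of Cpox 55.6%. Leaving out the 77 cells of highest doublet score, an alternative chosen after seeing the data, gave 93.1% for Alas2. The removal of cells marked by scrublet was not run because none was marked.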
